A study of Mus musculus with 12 samples.

Results

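Trim28 and Zbtb45 are neighbouring mouse genes on chromosome 7 that are transcribed away from each other, and they were examined here in 3 ORFtag screens. ORFtag is a gene-tagging method: a retroviral cassette lands at many genomic positions, and its splice donor joins a tag to the next exon downstream, so that a protein is made with the tag at or near its N-terminus. The 2 genes were chosen by name from 20409 protein-coding genes, because integrations on their own strand and integrations called with the strand reversed were both listed as enriched for them in the repressor and PTGR screens. The insertion counts of those 2 screens therefore chose the genes and are given below as a description without a test, whereas the activator screen, the places of the insertions, their distances and their sharing between libraries were not used for the choice.

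Each of the 12 libraries is a list of integration positions from genomic DNA of mouse embryonic stem cells (mESC), with 2 sorted and 2 unsorted replicates per screen. All cells were wild-type diploid cells derived from the haploid clone HMSc2, and each screen used a clonal reporter line. In the activator screen the cassette carried TetR, the reporter 7xTetO-pMYLPF-Puro-IRES-GFP lay in an expression-stable locus on chromosome 15, and cells that gained GFP were sorted. In the repressor screen the cassette also carried TetR, the reporter pEF1-BFP-7xTetO-pPGK-Puro-IRES-GFP lay in the same locus, and cells that lost GFP were sorted. In the screen for posttranscriptional gene regulation (PTGR) the cassette carried λN, the randomly integrated reporter Puro-IRES-GFP-10xBoxB was read at the RNA level, and cells with low GFP that regained it after Cre removed the BoxB sites were sorted. In every group the cassette was a mix of variants for the 3 reading frames, driven by the PGK promoter and selected through neomycin resistance. The unsorted libraries held the same reporter and cassette without the GFP sort.

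TRIM28 (also called KAP1) is the corepressor of KRAB zinc finger proteins. These DNA-binding proteins bring it to transposable elements and imprinted regions, where it gathers the histone methyltransferase SETDB1, HP1 proteins and the NuRD remodelling complex, and in embryonic stem cells it is known for silencing endogenous retroviruses. ZBTB45 belongs to the BTB zinc finger family, whose members pair through the BTB domain, bind DNA with their zinc fingers and often act with corepressors. A cassette that splices into Trim28 must lie on the plus strand, and one that splices into Zbtb45 must lie on the minus strand.

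The cassette joins exon 2 of either gene, and the 30 bases across these splice acceptors are shown because almost every insertion described below was assigned to them (mouse GRCm38/mm10, 5′ to 3′ on the strand of the gene). Lower case marks the end of intron 1 and capitals mark the first 10 bases of exon 2.
Trim28 exon 2 acceptor, chr7:13025284-13025313, plus strand: tcccatttttatcttggcagTGGTGGATTG
Zbtb45 exon 2 acceptor, chr7:13008320-13008349, minus strand: attgtctcctcctcttgcagATGGCAGCCA

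Trim28 (ENSMUSG00000005566) has its coding transcript start at 13024152 on the plus strand, and 343 coding bases lie in its exon 1, upstream of the joined exon. Zbtb45 (ENSMUSG00000049600) starts at 13010034 on the minus strand, and in all 5 of its coding transcripts exon 1 holds 0 coding bases, so that exon 2 opens with the ATG seen above. The starts are 14.118 kb apart, and the stretch between them is upstream of the coding transcripts of both genes. The whole annotated record of Trim28 begins farther out, at 12999114, and covers this stretch. All places below are given relative to the starts of the coding transcripts, and a start at the gene record would put the stretch inside Trim28. Of 1627 Trim28 insertions in the 12 libraries, 1607 (98.8%) were assigned to exon 2, and of 743 Zbtb45 insertions 725 (97.6%) were. The positions listed most often at each gene, both found in 7 libraries, are also shown, with the listed base in capitals.
Trim28, chr7:13017706-13017735, plus strand, 6431 bp upstream of the start: cattgaaagtcatccTtagctaaagagcaa
Zbtb45, chr7:13013300-13013329, minus strand, 3281 bp upstream of the start: tttctcaaggctatGacctttttttttttt

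The sorted libraries held 14705 to 60980 sense insertions (unique positions within 200 kb of the assigned exon) and the unsorted libraries 54088 to 233799, so counts are given per 10000 insertions of a library. A gene without any insertion could hold up to 2.04 per 10000 in the shallowest sorted library and 0.555 in the shallowest unsorted one. In the unsorted libraries of the repressor screen every position was listed more than once, and in sorted PTGR replicate 2 12.7% were. Each position was counted once.

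In the sorted repressor libraries, Trim28 held 331 and 302 sense insertions, or 149 and 199 per 10000. The 2 unsorted libraries of that screen held 199 and 169 (11.4 and 9.55 per 10000), the activator unsorted libraries 65 and 84 (3.71 and 4.05) and the PTGR unsorted libraries 129 and 30 (5.52 and 5.55). Both sorted values lay above all 6 unsorted values, whose mean was 6.63 ± 3.13 per 10000 (SD, n = 6). Among the unsorted libraries the 2 of the repressor screen were the highest for Trim28.

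In the sorted PTGR libraries Trim28 held 187 and 122 sense insertions (30.7 and 20.8 per 10000), again above every unsorted library. The repressor sorted mean for Trim28 was 174 ± 35.3 per 10000 and the PTGR sorted mean 25.7 ± 6.95 (SD, n = 2 each). The 2 screens differ in tag, reporter and number of sorts, so these levels stand side by side and were not compared.

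Zbtb45 held 47 and 12 sense insertions in the sorted repressor libraries (21.1 and 7.89 per 10000) and 129 and 86 in the sorted PTGR libraries (21.2 and 14.7). Its unsorted values were 4.10 and 4.38 (activator), 4.13 and 3.45 (repressor), and 5.56 and 6.47 (PTGR), a mean of 4.68 ± 1.12 (SD, n = 6). All 4 sorted values of these screens lay above the unsorted range. The repressor replicates of Zbtb45 lay far apart, and replicate 2 stood only slightly above the highest unsorted library.

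**Figure D1:**
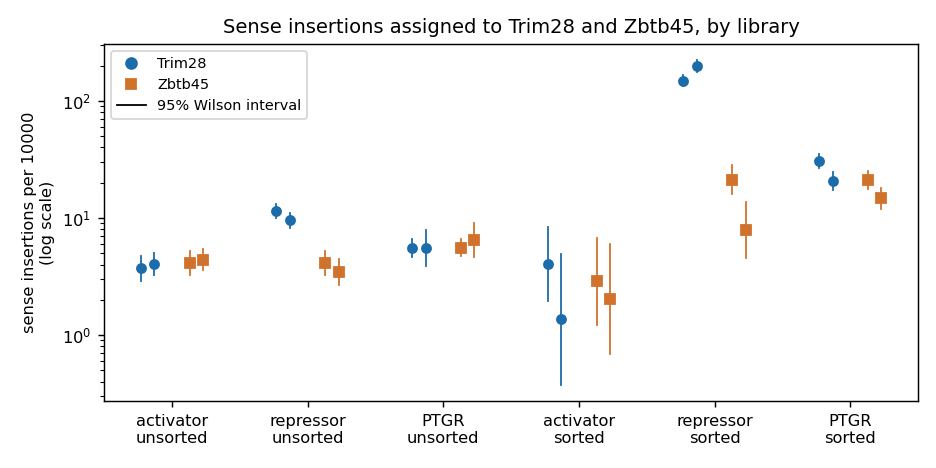
Sense insertions per 10000 insertions of a library (log axis) for Trim28 and Zbtb45 in the 12 libraries, with 1 point per library and its 95% Wilson interval. The repressor sorted libraries of Trim28 reach 149 and 199 per 10000, and those of Zbtb45 21.1 and 7.89, while no unsorted library of either gene exceeds 11.4.

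Against the 6 unsorted libraries together, the log2 odds ratio of Trim28 was 4.70 (SE 0.08) for the repressor reporter, from 633 sorted and 676 background insertions. It was 1.97 (SE 0.10) for the PTGR reporter, from 309 sorted insertions. That of Zbtb45 was 1.81 (SE 0.20) from 59 sorted repressor and 461 background insertions, and 2.00 (SE 0.12) from 215 sorted PTGR insertions. A gene was called where the adjusted p of a one-sided Fisher's exact test was below 0.001 and the log2 odds ratio at least 1, and both genes were called in both screens. In the repressor screen the rule called 192 of 2346 tested genes (8.18%), and in the PTGR screen 62 of 9303 (0.666%). As these contrasts chose the genes, nothing is read from their calls.

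By number of sorted repressor insertions Trim28 ranked 5 and Zbtb45 81 among all genes, but by odds ratio they ranked 80 and 187 among the 192 called genes. In the PTGR screen they ranked 3 and 6 by number of sorted insertions, and 51 and 50 by odds ratio among the 62 called genes. Both genes thus combined large counts with moderate ratios, since their background was also large.

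The Zbtb45 call of the repressor screen rested on 1 library. Without repressor sorted replicate 1 the log2 odds ratio fell to 0.81 on 12 insertions, with an adjusted p of 0.172 (Fisher's exact test). The reversed log2 odds ratio of Trim28 was then 0.99, with an adjusted p of 0.103. For sense insertions of Trim28 the log2 odds ratio ranged from 4.51 to 4.94 when single replicates were left out. Tests that use the spread between replicates ended some calls: DESeq2 did not call Zbtb45 in the repressor screen (adjusted p = 0.0744), and for the PTGR reporter edgeR without the replicate block called neither Trim28 (0.00344) nor Zbtb45 (0.0593). With the replicate number as a block, which pairs each sorted library with the unsorted library of the same number, edgeR called both there (1.3e-18 and 1.89e-08).

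In the activator screen, which was not used for the choice, neither gene was enriched. Trim28 held 7 and 2 sense insertions in the sorted libraries (4.02 and 1.36 per 10000) and Zbtb45 5 and 3 (2.87 and 2.04). For Trim28 replicate 1 lay inside the unsorted range and replicate 2 below it, and for Zbtb45 both lay below the unsorted range. The log2 odds ratio was -1.24 (SE 0.48) for Trim28 and -0.86 (SE 0.51) for Zbtb45, with an adjusted p of 1.00 for a higher share (one-sided Fisher's exact test). In that screen 132 of 2842 genes (4.64%) were called.

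A lower share in the activator screen was looked at with a test added afterwards. With a two-sided Fisher's exact test the adjusted p was 0.0785 for Trim28 and 0.539 for Zbtb45. Against the unsorted libraries of the activator screen alone the log2 odds ratios were -0.47 and -0.77. Without the unsorted repressor libraries, which held the most Trim28 insertions, they were -0.71 and -0.97. DESeq2 gave adjusted p-values of 0.0437 and 0.0218 and edgeR 0.381 and 0.218 (with the replicate block 0.511 and 0.366) for the same screen, all above the threshold used for calls.

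Integrations were also assigned after the authors had turned the strand of each, which gives a reversed list that serves as a caution mark for each gene. In the reversed lists Zbtb45 held 321 and 294 insertions in the sorted repressor libraries that were the sense insertions of Trim28 at the same coordinates. Likewise, the 47 and 12 sense insertions of Zbtb45 were all listed as reversed insertions of Trim28. The reversed log2 odds ratios therefore exchanged places between the genes: in the repressor screen Zbtb45 had 4.94 and Trim28 2.02, and in the PTGR screen each had 1.98. With reversed insertions the rule called 5.61% of genes for the repressor reporter (125 of 2229), 0.5% for the PTGR reporter (46 of 9204) and 3.14% for the activator reporter (85 of 2706).

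Over all 12 libraries 1590 of 1627 Trim28 sense positions (97.7%, 95% Wilson interval 96.9 to 98.3) were reversed positions of Zbtb45 in the same library. All 743 of 743 Zbtb45 sense positions (100%, 99.5 to 100) were reversed positions of Trim28. Together 2333 of 2370 positions (98.4%, 97.9 to 98.9) were mirrored in this way. Mirroring is set by the coordinate and the gene models, and a position found in several libraries is counted in each. Distinct positions numbered 1063 for Trim28 and 576 for Zbtb45, so the intervals treat repeated positions as independent and are a description only. The other 37 Trim28 positions went to Zfp329 (20) and Slc27a5 (17) when reversed.

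The mirrored share was high in sorted and unsorted libraries alike. For Trim28 it was 97.0% and 97.4% in the sorted repressor libraries, 97.9% and 100% in the sorted PTGR libraries, and 95.2% to 100% in the unsorted libraries. For Zbtb45 it was 100% in each of the 12 libraries. The caution mark of 1 gene and the insertion count of the other were thus the same positions, and they do not count as separate measurements.

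**Figure D2:**
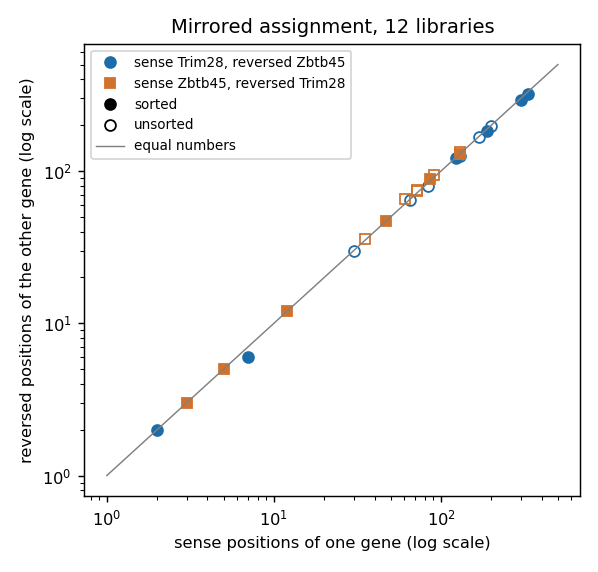
Sense insertions of each gene against all reversed insertions of the other gene (log axes), with 1 point per gene and library. The points follow the line of equality: 331 against 321 and 302 against 294 for Trim28, and 47 against 47 and 12 against 12 for Zbtb45, in the sorted repressor libraries.

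Mirroring was common among neighbouring genes transcribed away from each other. Of 2319 such pairs with at least 20 background positions for each gene, the median pair had 78.5% of its unsorted positions mirrored (quartiles 47.7 and 94.4), and 789 pairs exceeded 90%. Trim28 and Zbtb45 reached 98.8% (1123 of 1137), rank 219 by share and rank 25 by number of positions. Among the 969 pairs with starts under 20 kb apart, whose median was 73.5%, they ranked 70 by share and 3 by number of positions. Their share was therefore in the upper range of such pairs but not the highest, and the count of positions behind it was large.

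Most insertions of both genes lay between the 2 starts. In the unsorted libraries 90.5% ± 4.33 of Trim28 insertions and 93.7% ± 1.52 of Zbtb45 insertions lay there (SD, n = 6). In 1 kb bins, the bin from 12 to 11 kb upstream of the Trim28 start was the fullest on the plus strand, with 112 of 676 background insertions (16.6%), 103 of 633 sorted repressor insertions (16.3%) and 57 of 309 sorted PTGR insertions (18.4%). On the minus strand the same bin held 92 of 461 background insertions (20.0%), 13 of 59 (22.0%) and 42 of 215 (19.5%). For Zbtb45 in the sorted repressor libraries the fullest place rested on replicate 1, with 12 of 47 insertions in that bin, whereas replicate 2 had 1 of 12 there and 5 of 12 in the bin from 16 to 15 kb upstream of the Trim28 start.

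**Figure D3:**
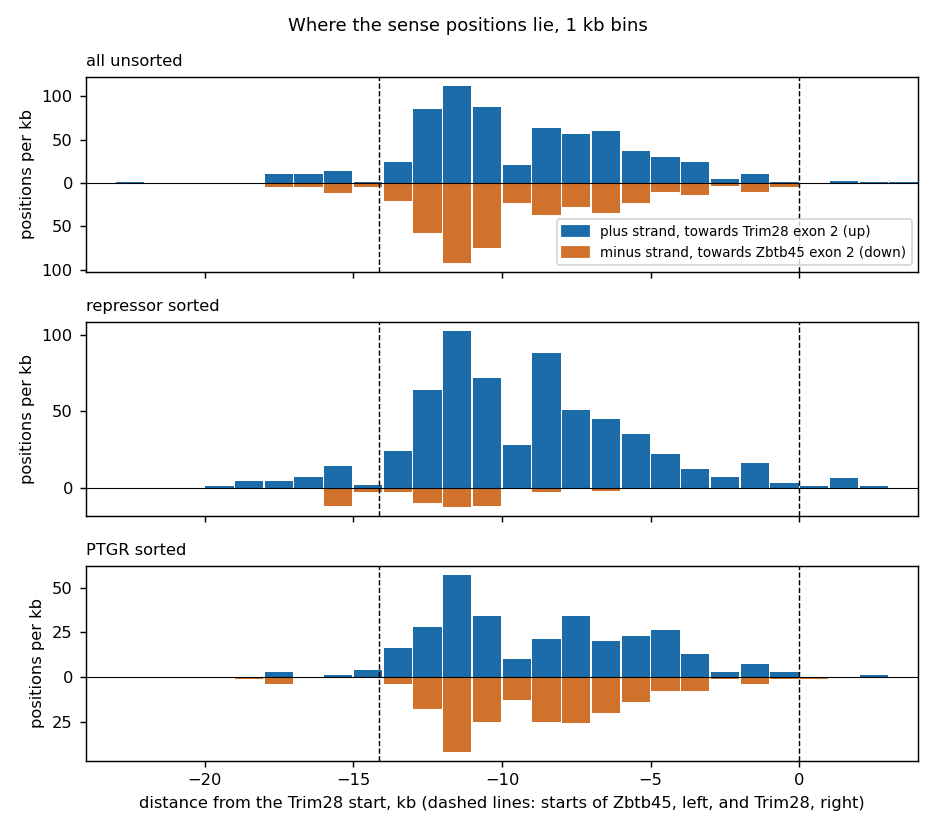
Number of insertions of each gene per 1 kb bin (Trim28 upwards, Zbtb45 downwards), by distance from the Trim28 start in kb, for the 6 unsorted, 2 repressor sorted and 2 PTGR sorted libraries. The bin from -12 to -11 kb holds 16.3% to 18.4% of Trim28 and 19.5% to 22.0% of Zbtb45 insertions, and the window leaves out 15, 23 and 5 Trim28 and 2, 0 and 0 Zbtb45 insertions farther away.

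The distance from insertion to assigned exon did not separate sorted from unsorted libraries at Trim28. Its median per library was 10416 and 11107.5 bp in the sorted repressor libraries, 10123 and 11134 bp in the sorted PTGR libraries, and 10003.5 to 11592 bp in the 6 unsorted libraries. The differences of -361 and -494 bp had exact two-sided permutation p-values of 0.536 and 0.393. Upstream of the start lay 97.8% and 99.3% of the insertions on average, against 98.4% ± 1.93 in the unsorted libraries (exact permutation p = 0.714 each). The sorted activator libraries had medians of 12187 and 4818 bp on 7 and 2 insertions (p = 0.25, exact permutation test).

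Zbtb45 insertions lay nearer to the gene in the repressor screen and farther away in the PTGR screen. The median distance was 3982 and 1805 bp in the sorted repressor libraries, 6643 and 7189.5 bp in the sorted PTGR libraries and 5023.5 to 5572.5 bp in the 6 unsorted libraries (mean 5273 ± 222). Neither sorted pair overlapped the unsorted range, and the sorted activator medians of 6929 and 7068 bp, on 5 and 3 insertions, also lay above it. The sorted means differed from the unsorted mean by -2380 bp (repressor), +1643 bp (PTGR) and +1725 bp (activator).

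Each of these 3 differences had an exact two-sided permutation p of 0.0357, the smallest that 2 against 6 libraries allow. After Benjamini-Hochberg adjustment over the 18 tests of distance and place it was 0.0918, so none passed 0.05. Within a screen the direction was the same: the unsorted repressor libraries had medians of 5023.5 and 5198 bp, the unsorted PTGR libraries 5572.5 and 5495 bp, and the unsorted activator libraries 5073 and 5278 bp. No exact permutation test was run within a screen, since with 2 against 2 libraries it could not pass 0.05. The test of 2 against 6 libraries does not use the pairing of libraries.

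**Figure D4:**
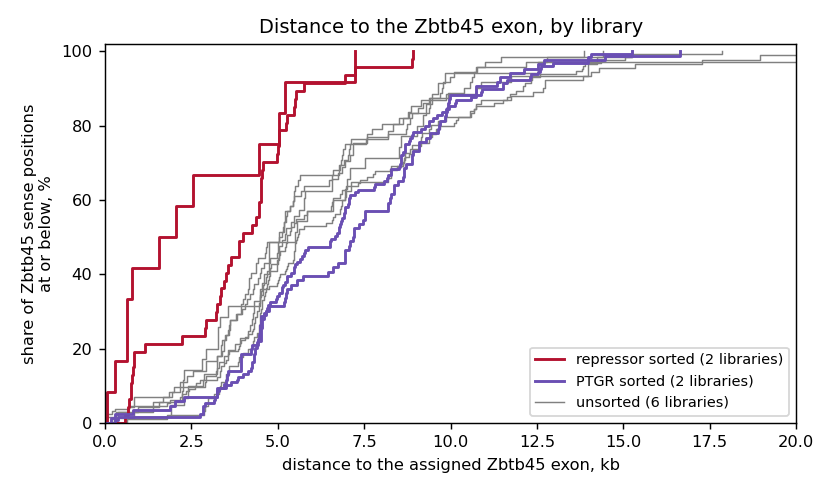
Cumulative share of Zbtb45 sense insertions by distance to the assigned exon in kb, with 1 line per library. The repressor sorted lines rise first (medians 3982 and 1805 bp) and the PTGR sorted lines reach their midpoint last (6643 and 7189.5 bp). The axis stops at 20 kb, beyond which lie 2 of 735 insertions, and the sorted activator libraries with 5 and 3 insertions are left out.

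The place of Zbtb45 insertions relative to its start followed the distances. In the sorted repressor libraries 37 of 47 (78.7%) and 6 of 12 (50.0%) lay upstream of the start, against 93.1% to 98.9% in the unsorted libraries, a difference of -30.5 percentage points (exact permutation p = 0.0357, adjusted 0.0918). Insertions in an intron of Zbtb45 made up 21.3% and 41.7%, against 3.32% ± 2.15 (SD, n = 6) in the unsorted libraries. All 59 sorted repressor insertions of Zbtb45 lay within 9.30 kb (chr7:13007948-13017247), and 56 of these positions were distinct.

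Within 2 kb of the Zbtb45 start lay 44.7% and 58.3% of the sorted repressor insertions and 9.30% and 10.5% of the sorted PTGR insertions. The unsorted libraries held 15.4% to 27.8% there (mean 21.6% ± 5.27), between the 2 screens and overlapping neither. Both differences, +29.9 and -11.7 percentage points, had an exact permutation p of 0.0357 and an adjusted p of 0.0918. For Trim28 the same window held 4.12%, 3.10% and 1.76% in the repressor sorted, PTGR sorted and unsorted libraries on average (exact permutation p = 0.143 and 0.393).

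The strand of the insertions over both genes together differed among the unsorted libraries themselves. The plus strand, which belongs to Trim28, held 47.4% and 48.0% in the activator and 49.8% and 46.2% in the PTGR unsorted libraries, but 73.4% (95% Wilson interval 67.9 to 78.3) and 73.5% (67.4 to 78.8) in the repressor unsorted libraries. Over all genes the plus strand held 48.3% to 54.6% in each library. The higher share was therefore found at this locus in cells of 1 screen that had not been sorted for GFP.

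In the sorted repressor libraries the plus strand held 87.6% (83.9 to 90.5) and 96.2% (93.4 to 97.8). In the sorted PTGR libraries it held 59.2% (53.7 to 64.5) and 58.7% (51.9 to 65.1), above the unsorted PTGR and activator libraries and below the unsorted repressor libraries. The sorted activator libraries, with 12 and 5 insertions, had 58.3% and 40.0% (difference from the 6 unsorted libraries -7.22 points, exact two-sided permutation p = 0.714).

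Many Trim28 positions recurred between libraries. Of the Trim28 positions of the 2 unsorted repressor libraries, 33.2% and 46.2% were also listed, on the same strand, in sorted repressor replicate 1, compared with 0.925% and 1.09% of all positions of these libraries. For Zbtb45 it was 9.72% and 9.84%. That sorted library held 331 Trim28 but 47 Zbtb45 positions, and a shared position is likelier where more positions are held. These shares and those below are therefore not on a like footing between genes or with all positions. What gives rise to the sharing was not tested. Across screens, 20.9% of the Trim28 positions of PTGR unsorted replicate 1 were listed in sorted repressor replicate 1, compared with 0.172% of all its positions.

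Between the sorted repressor replicates, 33.8% of the Trim28 positions of replicate 1 were found in replicate 2, beside 18.2% of all positions. Of the Trim28 positions of sorted PTGR replicate 1, 5.35% were found in replicate 2, beside 0.545% of all positions. Of 1063 distinct Trim28 positions 67.7% were in 1 library and 57 (5.36%) in at least 4, while of 576 distinct Zbtb45 positions 78.1% were in 1 library and 6 (1.04%) in at least 4. Over all 1540844 distinct positions these shares were 94.6% and 0.0792%. A position listed in several libraries need not be a separate event in each, and which are separate was not tested.

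Counting only positions found in no other library gave plus shares of 64.5% (55.8 to 72.4) and 51.3% (40.3 to 62.2) in the unsorted repressor libraries. The activator unsorted libraries then had 45.3% and 42.2% and the PTGR unsorted libraries 45.4% and 43.8%. The sorted PTGR libraries had 56.6% and 54.1%, and the sorted repressor libraries 88.4% and 94.2%. Unsorted repressor replicate 2 then lay below both sorted PTGR libraries, and its interval overlapped those of all other unsorted libraries. Positions shared with the sorted repressor libraries lay mostly on the plus strand, so this step by its construction takes out more plus than minus positions.

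**Figure D5:**
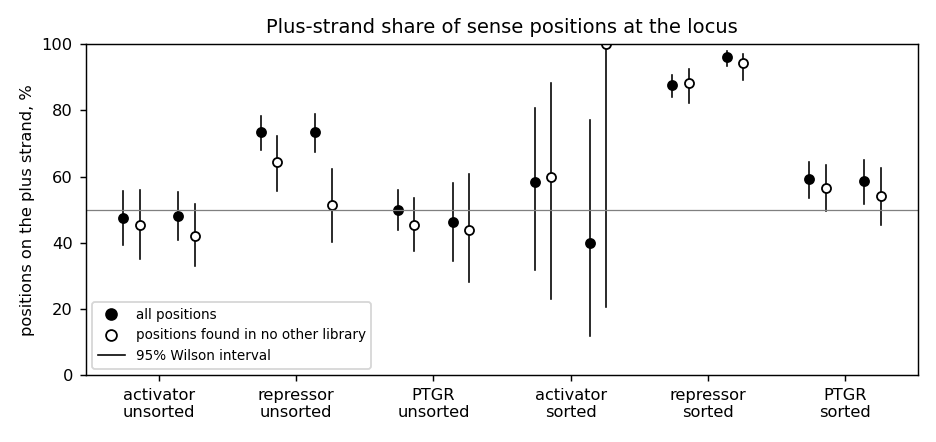
Percent of insertions at Trim28 and Zbtb45 that lie on the plus strand, with 1 filled point per library for all positions and 1 open circle for positions found in no other library, each with its 95% Wilson interval. The unsorted repressor libraries stand at 73.4% and 73.5% with all positions and at 64.5% and 51.3% with the latter, while the other unsorted libraries stand between 46.2% and 49.8% with all positions.

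Plus and minus positions were often a fixed step apart. Of 743 minus positions of Zbtb45, 63 (8.48%) had a plus position of Trim28 5 bp lower in the same library, while other steps of up to 12 bp accounted for 0.942% to 2.83% each. The libraries differed: such pairs made up 14 of the 47 Zbtb45 insertions in sorted repressor replicate 1, on which the Zbtb45 call rests, but 0 of 12 in replicate 2. In the sorted PTGR libraries they made up 15 of 129 and 4 of 86, and in the unsorted libraries 0 of 35 to 10 of 72. Over all genes the same step accounted for 1.02% of minus positions and was also the most common, with the other steps at 0.101% to 0.349% each. Every step of up to 12 bp was thus more frequent at this locus, and not the 5 bp step alone. What gives rise to the 5 bp step was not tested, and each such pair counts 1 insertion for each gene.

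Many known partners of TRIM28 were called in the repressor screen. Of 31 listed genes of the TRIM28 pathway, 24 were tested there and 19 of these were called, beside 192 of all 2346 tested genes (8.18%). The list was chosen with earlier results of these data known. The median log2 odds ratio over the 24 with at least 3 sorted insertions was 4.43, beside -0.39 over all genes with that minimum. The minimum is on the sorted count itself and leaves out 7 listed genes, so the called share and this median are descriptions and support nothing. Zfp568, a KRAB zinc finger gene, was the only one with a reversed call (2.29), among 7 with enough reversed insertions to be tested.

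All 3 HP1 genes, whose products bind methylated histone H3, were called, with Cbx3 at 5.94 (SE 0.29), Cbx1 at 4.52 and Cbx5 at 4.38 on the log2 scale. Of SETDB1 and its partners 3 genes were tested and 2 called. Setdb1 itself reached 5.34 (SE 0.37) and Atf7ip, which stabilises it, 4.34. Of 8 KRAB zinc finger genes 5 were called: Zfp809 at 5.62, Zfp57 at 5.32, Zfp708 at 5.06, Zfp932 at 4.77 and Zfp568 at 3.02. Zfp57 binds imprinted regions and Zfp809 binds proviral DNA.

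Both NuRD remodellers of the list were called, Chd3 at 5.49 and Chd4 at 4.55. Of 5 genes of the SUMO pathway, whose modifier TRIM28 carries on its bromodomain, 4 were tested and 3 called. Among the called were Sumo3 (5.74) and Sumo2 (5.70), while Pias1, a SUMO ligase gene with 0 sorted repressor insertions, could not be tested. Of 4 HUSH genes 3 were tested and 2 called, Mphosph8 and Tasor, both at 4.43. Of 3 relatives of TRIM28 in the TIF1 family only Trim24 had enough sorted insertions to be tested, and it was called at 3.37. Of the 3 remaining listed genes 2 were tested, with a median of 1.20, and only the remodeller Smarcad1 was called, at 3.37. Trim28, at 4.70, lay near the middle of the values of the called genes named here.

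In the PTGR screen 25 of the 31 genes were tested on their own strand. Fisher's exact test called 0 of them, beside 0.666% of all tested genes, and 1 had an unadjusted p below 0.05. edgeR and DESeq2 also called 0 of them. Their median over the 25 tested was -0.20, beside 0.14 over all tested genes. For the activator reporter 9 of the 31 were tested. Fisher's exact test, edgeR and DESeq2 called 0 of them, beside 4.64% of all tested genes by Fisher's exact test. By that test 0 had an unadjusted p below 0.05. With shares this low over all genes, the 0 calls in either screen are not read as a result about the list.

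Of 40 other ZBTB genes, 12 were tested in the activator, 11 in the repressor and 27 in the PTGR screen on their own strand. Fisher's exact test called 2, 1 and 0 of these, beside 4.64%, 8.18% and 0.666% of all tested genes. Numbers this small are not read as a result about the family. Zbtb11 (5.32) and Zbtb32 (2.61) were called on their own strand with the activator reporter. In the repressor screen Zbtb3 (3.77, from 8 sorted and 16 background insertions) was called on its own strand and Zbtb21 (5.71) reversed only. edgeR and DESeq2 called neither Zbtb32 nor Zbtb3. In the PTGR screen 0 were called by Fisher's exact test, edgeR or DESeq2, with 3 at an unadjusted Fisher p below 0.05 in each list. Zbtb45 was the only one of the family with calls on both strands in that screen, but it was chosen for them, so nothing is read from this.

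Of 17 other genes within 200 kb, Zfp128 was called in the repressor screen on its own strand (5.99, from 14 sorted and 6 background insertions). Zfp329 and Slc27a5 were called reversed (2.36 and 5.03), by edgeR as well but not by DESeq2. All 8 sorted repressor positions of Slc27a5 and 10 of the 34 of Zfp329 were Trim28 sense positions. In the PTGR screen Ube2m was called on its own strand (2.29, 16 sorted insertions) and Vmn1r88 reversed (1.78, 26 sorted insertions), neither of them by edgeR or DESeq2. None of the Vmn1r88 positions was a sense position of Trim28 or Zbtb45. In the activator screen 0 of the 17 had enough sense insertions to be tested, and 1 had enough reversed ones. That gene was not called by Fisher's exact test, edgeR or DESeq2, and its unadjusted Fisher p was not below 0.05.

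Over the 12 libraries, on a log2 scale of insertions per 10000, Trim28 and Zbtb45 had a Pearson r of 0.75. The libraries share screens, cell lines and, at this locus, positions, and include the sorted libraries that chose both genes, so r is a description. Among 7998 genes the pattern of Trim28 was most like that of Morc1 (0.97), which silences transposons in germ cells, followed by L3mbtl2 (0.95), a chromatin-binding repressor, Phf21a (0.94), 3300002I08Rik (0.94) and the corepressor gene Spen (0.94). The likeness of L3mbtl2 and 3300002I08Rik rests on small counts, 10 and 14 sorted repressor and 9 and 5 sorted PTGR insertions. The study gave its caution mark for reversed integrations to Morc1 in the PTGR screen and to 3300002I08Rik in the repressor screen. Trim28 carries the same mark in both screens, whereas L3mbtl2, Phf21a and Spen are not among the genes it marked.

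For Zbtb45 the most alike genes were the corepressor gene Ctbp2 (0.89), Morc1 (0.86), Shank2 (0.86), Henmt1 (0.84) and Cnot8 (0.82), a deadenylase gene. Morc1 was the only gene on both lists. The other 4 had 10 to 17 sorted PTGR and 2 to 7 sorted repressor insertions, so their likeness rests on small counts.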

How the data were processed

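The 12 libraries are inverse-PCR sequencing of integration sites. Per the labels and the study's methods, the authors trimmed reads (Trim Galore 0.6.0), aligned them to mm10 with Bowtie2, removed duplicates and reads with mapping quality of 30 or less (SAMtools 1.9), and assigned each position to the closest downstream non-first exon of a protein-coding transcript (GENCODE vM25), as mapped and with the strand reversed. They deposited lists of positions and tables of insertion counts per gene. Columns of their own odds ratios and p-values were not used. The lists hold positions without read numbers, so depth is given as insertions per library.

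From the lists, unique positions within 200 kb were counted once per library. The deposited PTGR sorted counts were 332 for Trim28 and 228 for Zbtb45, against 309 and 215 here, while the other deposited counts of both genes were equal to those here. The numbers of called genes also differ from the numbers of hits the study reported. The main test follows the study's methods: one-sided Fisher's exact test of the 2 summed sorted libraries against the 6 summed unsorted libraries, with Benjamini-Hochberg adjustment over genes with at least 3 sorted insertions (scipy 1.17.1, Python 3.11.15). edgeR 4.0.16 and DESeq2 1.42.0 (R 4.3.3) were alternatives. On simulated data Fisher's test recovered 94% to 97% of genes raised 16-fold and 17% to 30% of those raised 4-fold, with 0 false calls. The simulated counts varied by counting error only, without spread between libraries or shared positions. The 0 false calls therefore say nothing about false calls that such spread could give in the real libraries. Summed libraries ignore the spread between replicates, which the study describes as biological replicates from independent transductions. Per the methods, unsorted cells were set aside from the transduced cells that were then sorted. Replicate numbers followed this: sorted libraries 1 and 2 shared 4.94% and 19.5% of all positions with the same-numbered unsorted library in the activator screen (2.24% and 1.44% with the other one), and 18.2% and 6.76% in the PTGR screen (0.343% and 1.79%). In the repressor screen they did not separate (8.19% and 8.23%, against 9.88% and 5.03%). Wilson intervals and limits of a 0 count cover counting error only.

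Gene models and sequences came from GRCm38 with GENCODE vM21 (samtools 1.23.1), and every listed distance at both genes ended at an exon boundary of these models within 1 bp. Places and distances were compared by exact permutation over libraries (28 splits). The genes, lists and tests were chosen with earlier results of these data known. Genes named beside Trim28 and Zbtb45 are the called members of the TRIM28 pathway, ZBTB and neighbour lists and the 5 genes most correlated with each. Pias1, which was not called, was added after its values were seen, and some listed genes are not reported here by name. Alternatives changed the background, distance limit, repeated, merged or shared positions, filter and test.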

Additional observations from a re-analysis of the deposited data

Results flagged for a closer look

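The share of Zbtb45 insertions upstream of the start was 98.9% in activator unsorted replicate 2, apart from the other 5 unsorted libraries (93.1% to 95.1%). Of 12 groups of 6 libraries examined in this way it was the 1 whose extreme sample stood apart by Dixon's criterion, and chance marks about 1 in 20 such groups.

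The median distance of Zbtb45 insertions to the assigned exon moved in opposite directions between screens. Against the mean of the 6 unsorted libraries it differed by -2380 bp in the sorted repressor libraries, by 1643 bp in the sorted PTGR libraries and by 1725 bp in the sorted activator libraries. Every sorted library moved in the direction of its screen, and the difference between the screens was not tested. The repressor value rests on 47 and 12 insertions and the activator value on 5 and 3.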

How the results depend on the processing

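Over 192 alternative values of the log2 odds ratios of both genes, 182 kept direction and side of the threshold, 10 lost the call and 0 turned direction. Besides the 2 values without repressor sorted replicate 1 given above, the lost calls came from edgeR without the replicate block in the PTGR screen (Trim28 adjusted p = 0.00344, Zbtb45 0.0593, reversed 0.0822 and 0.00615) and from DESeq2 (repressor Zbtb45 0.0744 and reversed Trim28 0.0867, PTGR Zbtb45 0.0276 and reversed Trim28 0.0438). Without the unsorted repressor libraries the repressor log2 odds ratios were 5.23 and 1.69 for Trim28 and Zbtb45 and the PTGR ones 2.50 and 1.88. Against the unsorted libraries of their own screen they were 4.03, 2.06, 2.23 and 1.65.

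The number of genes called moved more. In the activator screen edgeR and DESeq2 each called 82 on their own strand (132 by Fisher's test), and DESeq2 55 reversed (85). In the repressor screen DESeq2 called 112 (192) and 74 reversed (125), and a 50 kb limit left 72 reversed. In the PTGR screen the unsorted libraries of that screen alone gave 40 (62) and 29 reversed (46), edgeR 3 and 2, and DESeq2 12 and 7. With the replicate number as a block edgeR called 100, 163 and 32 genes in the activator, repressor and PTGR screens, and 74, 101 and 25 reversed, and both genes were called in the repressor and PTGR screens. In the PTGR and activator screens the numbers marked common positions, and the correlations of their deviations were 0.065, -0.00087 and 0.26 in the activator, repressor and PTGR screens (sense insertions).

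With single replicates left out, the sorted minus unsorted difference in Zbtb45 median distance lay between -3468 and -1291 bp for the repressor reporter. For the PTGR reporter it lay between 1370 and 1916 bp. The Trim28 difference with the activator reporter lay between -6304 and 1065 bp. For Zbtb45 and the repressor reporter, the upstream share of sorted libraries differed from that of unsorted ones by -44.8 to -16.1 points. Their share near the Zbtb45 start differed by 23.1 to 36.7 points. With the activator reporter, the differences near the start were -21.6 to -1.62 points for Zbtb45 and -1.76 to 48.2 points for Trim28. The sorted activator libraries held 7 and 2 Trim28 insertions.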
